A study of Mus musculus with 72 samples.

Results

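The 6 genes that mark fast transmission by GABA or glutamate (Gad1, Gad2, Slc32a1, Slc17a8, Slc17a6 and Slc17a7) were followed through single serotonin-lineage neurons of the mouse dorsal raphe nucleus (DR). They were taken by name. All 6 were among the 24256 genes measured in 70 manually sorted cells, and 5 of the 6 were among the 17231 genes of 2350 cells profiled by droplet sequencing (10X Genomics Chromium 3′ v3). Slc17a7 was not analysed in the 10X cells.

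The 10X cells came from the full DR of pooled mice in 2 runs, of genotype Pet1::Flpe+/-; hM3Dq+/+ at a mean age of postnatal day 65.5 and En1::cre+/-; Pet1::Flpe+/-; RC::FrePe+/- at a mean of day 59. All mice carried Pet1::Flpe, a recombinase transgene driven by Pet1 (Fev) regulatory sequence, so that cells were collected by EGFP in the Pet1 lineage and other cells of the DR were sorted away. RC::FrePe gives EGFP where both Flpe and Cre have acted, at any earlier time in that cell's history, and with no Cre in the hM3Dq mice the allele gave EGFP alone. The 70 manually sorted cells fell into 8 groups of 6 to 10 cells, each group crossing RC::FrePe+/- and Pet1::Flpe+/- with a Cre driver and a part of the DR. Sert::cre+/- cells came from the dorsolateral (dlDR, 10 cells), dorsomedial (dmDR, 9), ventromedial (vmDR, 8) and caudal (cDR, 6) DR, at day 63 or 90 (cDR at day 63 alone). P2ry1::cre+/- cells came from the cDR (10 cells, days 62 to 74), Npy2r::cre+/- cells from the cDR (10) and the rostral DR (rDR, 9) at day 77 or 87, and Crh::cre+/- cells from the rDR (8) at day 83 or 119. The labels name no treatment, and no animal for any cell, so each group counts as 1 sample, and values are given as levels, ranges and folds without a test between groups.

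GABA is made from glutamate by glutamate decarboxylase, whose isoforms GAD67 and GAD65 are encoded by Gad1 and Gad2, and is loaded into synaptic vesicles by VGAT, the product of Slc32a1. Glutamate is loaded by the vesicular transporters VGLUT1 (Slc17a7), VGLUT2 (Slc17a6) and VGLUT3 (Slc17a8). VGLUT3 is known from neurons whose main transmitter is another one, serotonin neurons of the raphe among them, and serotonin itself is loaded by VMAT2 (Slc18a2). A GAD transcript without the vesicular carrier is therefore not the full set of genes of a classical GABA neuron.

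On GRCm38, Gad1 lies at chr2:70553072-70602014 on the plus strand, Gad2 at chr2:22622205-22693874 (plus), Slc32a1 at chr2:158610767-158615748 (plus), Slc17a8 at chr10:89574020-89621253 (minus), Slc17a6 at chr7:51622006-51671119 (plus) and Slc17a7 at chr7:45163949-45176142 (plus). Gad1os, an antisense gene at chr2:70489940-70563357 on the minus strand, overlaps the start of Gad1. The manual libraries keep no strand, so reads of Gad1 and Gad1os in that overlap cannot be told apart there. Stretches just upstream of RefSeq start sites of the 3 abundant members are shown because Pet1 is an ETS-domain transcription factor and the sort used its regulatory sequence. They come from RefSeq promoters on GRCm38.p6, cut at the first annotated exon base of that start. The Gad1 start used lies inside the gene interval above, which begins with a transcript that starts farther upstream, whereas those of Gad2 and Slc17a8 are at the edge of theirs. In all 3, capitals mark the 4-base core shared by ETS sites (GGAA, or TTCC on the other strand).
Gad1, chr2:70561879-70562041, plus strand: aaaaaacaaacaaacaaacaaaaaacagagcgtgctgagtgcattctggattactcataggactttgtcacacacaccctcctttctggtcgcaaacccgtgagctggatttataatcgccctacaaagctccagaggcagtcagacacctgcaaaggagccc
Gad2, chr2:22622077-22622204, plus strand: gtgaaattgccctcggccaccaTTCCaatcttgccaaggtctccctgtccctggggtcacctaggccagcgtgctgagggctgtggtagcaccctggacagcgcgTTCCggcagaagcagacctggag
Slc17a8, first start, chr10:89621254-89621499, minus strand: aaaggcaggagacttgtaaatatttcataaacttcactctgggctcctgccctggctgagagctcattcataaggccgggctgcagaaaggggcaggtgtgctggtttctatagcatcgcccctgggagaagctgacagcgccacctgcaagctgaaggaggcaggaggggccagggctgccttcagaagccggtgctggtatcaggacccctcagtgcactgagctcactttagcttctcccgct
Over the full 250-base windows, the core occurred 1 time at Gad1, 4 times at Gad2 (2 of them in the stretch shown) and 0 times at the first start of Slc17a8, whose second start had 5. At least 1 such core lay in 93.5% of 32841 mouse promoters of this length, with a median of 3, so the matches are a description of these windows and not binding sites. TATAAA or TTTATA occurred 1 time at Gad1 and at 12.4% of all promoters, and AGATAA or TTATCT, the GATA motif, at none of these 3 windows and at 9.99% of all. G and C made up 58% of the Gad1 window, 64% of Gad2 and 57.2% of the first Slc17a8 window, above the median of 52.4% for all promoters.

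The 10X cells held 12320 to 134079 UMIs (unique molecular identifiers, 1 per captured transcript), with a median of 59646. Their barcodes fall into sets of 869 and 1481 cells, which shared 0 barcode sequences. The labels do not say which set is which run. The manual cells held 756872 to 7664103 reads each. Tph2, the enzyme that commits tryptophan to serotonin in the brain, had a UMI in 2339 of 2350 10X cells and lay between 2720 and 21204 CPM (counts scaled to a total of 1000000) in the 70 manual cells. Oligodendrocyte RNA was spread thinly through the 10X cells, with an Mbp UMI in 62.6% of them. Astrocyte markers (2 of 3 in the table) summed to 0.516 CPM and microglial markers (3 of 3) to 0.834 CPM.

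Slc17a8, Gad2 and Gad1 were common transcripts in these neurons, whereas the classical vesicular carriers Slc32a1 and Slc17a6 were close to absent. Over all 10X cells Slc17a8 stood at 158 CPM of summed UMIs (95% Poisson interval 156 to 160), Gad2 at 113 (111 to 115) and Gad1 at 47.8 (46.7 to 49.0). Slc32a1 reached 0.605 CPM from 82 UMIs and Slc17a6 0.155 CPM from 21 UMIs. Intervals cover counting error only, since cells of pooled mice are not replicates.

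Deep cells reveal more rare transcripts, so shares of cells were compared after every cell was thinned at random to 20000 UMIs, which left 2297 cells and set aside 53 shallower ones. At this equal depth Slc17a8 was detected in 1223 cells, 53.2% (95% Clopper-Pearson interval 51.2 to 55.3), and Gad2 in 1193, 51.9% (49.9 to 54.0). Gad1 was detected in 588 cells, 25.6% (23.8 to 27.4), Slc32a1 in 20 (0.871%) and Slc17a6 in 5 (0.218%). Without thinning the shares were 63.5% for Slc17a8, 59.7% for Gad2, 30.0% for Gad1, 1.79% for Slc32a1 and 0.468% for Slc17a6. Every cell in the table was sorted as Pet1 lineage, so no other cell type gives a background share. The lowest shares among the 14 clusters described next stand in for it. Gad1 was detected in 0 of 84 thinned cells of cluster 8, which allows a share of cells with a UMI at this depth of up to 3.57%, and in 0 of 106 of cluster 12, which allows up to 2.83% (3 cells of the total in each case). Without thinning, 4.65% and 1.83% of the cells of these clusters had a Gad1 UMI. Gad2 reached its lowest share at 3.57% (cluster 8) and Slc17a8 at 9.42% (cluster 2). A Slc17a8 UMI in a share of cells near 9% is therefore at the level of the cluster that holds least of it.

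Levels differed between the barcode sets as well. Gad2 stood at 86.7 CPM in set 1 and 128 CPM in set 2, Gad1 at 43.8 and 50.0, and Slc17a8 at 151 and 162. Gad2 was higher in set 2 within 11 of 14 clusters, while Slc17a8 was higher in set 1 within 11 of 14. If the sets are the 2 runs, they differ in genotype, mean age and run together, and these cannot be told apart.

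The cells were grouped by the clustering of the study's methods (2000 variable genes, components 1 to 50 without 6 and 7, resolution 0.9), rebuilt here, which gave 14 clusters numbered by listed marker genes. The 5 members in the table were among the variable genes, so their separation between clusters is a description and not a finding. GAD transcripts were high in clusters 2 to 6 and Slc17a8 in clusters 7 to 14, and Slc17a8 exceeded Gad2 in exactly these 8 of 14 clusters, which hold 45.8% of cells.

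**Figure D1:**
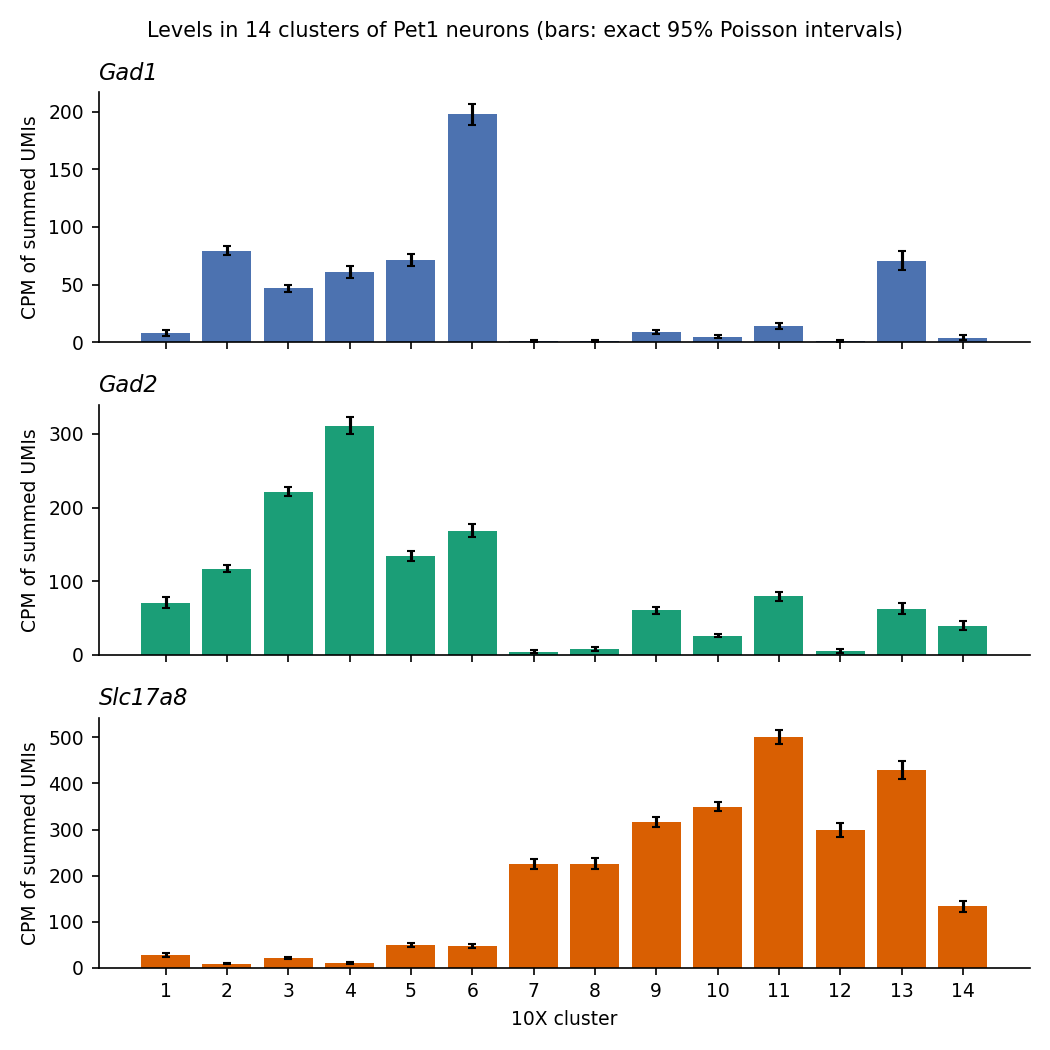
Levels of Gad1, Gad2 and Slc17a8 in the 14 clusters of 10X cells, as CPM of summed UMIs with 95% Poisson intervals. Slc17a8 lies above Gad2 in clusters 7 to 14 and below it in clusters 1 to 6, and Gad1 peaks in cluster 6.

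Gad2 was highest in cluster 4, at 311 CPM (300 to 323), followed by cluster 3 at 222, cluster 6 at 169, cluster 5 at 134 and cluster 2 at 117. It was lowest in clusters 8, 12 and 7, at 8.27, 5.03 and 4.38 CPM, whose order differed between the barcode sets (0.949, 7.01 and 3.17 CPM in set 1, and 12.9, 3.85 and 4.94 in set 2). The upper end of this order rests on where the clusters are drawn. In each of 4 other clusterings tried, the highest Gad2 cluster held 39.3 to 43.4% of the cells of cluster 4 and stood at 509 to 528 CPM.

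Gad1 had another order. Cluster 6 led with 198 CPM (189 to 207; at resolution 0.7 the highest cluster stood at 128), ahead of cluster 2 at 79.2, cluster 5 at 71.2 and cluster 13 at 70.5, whose intervals overlap their neighbours'. Cluster 4, the richest in Gad2, was at 60.8 CPM of Gad1, and cluster 3 at 46.8. Below these, cluster 11 was at 14.0 CPM (29.8 in barcode set 1 and 10.1 in set 2) and clusters 7, 12 and 8 at 1.13, 0.805 and 0.735 CPM, again in another order in each barcode set (0.793, 1.62 and 0 CPM in set 1, and 1.28, 0.321 and 1.20 in set 2). Gad1 exceeded Gad2 in clusters 6 and 13 and in no other cluster. In cluster 13 the intervals overlapped (62.9 to 78.8 CPM for Gad1 and 55.8 to 70.9 for Gad2). There the 2 genes stood at 68.8 and 53.9 CPM in barcode set 1 and at 72.2 and 71.8 in set 2.

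Slc17a8 was highest in cluster 11, at 501 CPM, then cluster 13 at 428, cluster 10 at 349.8, cluster 9 at 317 and cluster 12 at 298. Clusters 8 and 7, at 226 and 225 CPM, had overlapping intervals, and cluster 14 followed at 133. Within the GAD-rich clusters Slc17a8 was not evenly low. Clusters 5 and 6 were at 48.9 and 46.9 CPM, cluster 3 at 21.5, and clusters 4 and 2 at 10.1 and 8.77. Barcode set 1 was above set 2 in clusters 6 (72.0 and 38.9 CPM), 5 (61.3 and 40.6) and 4 (16.1 and 8.89) and below it in cluster 2 (6.59 and 12.6), and cluster 6 was ahead of cluster 5 in set 1. Cluster 1 was low in Slc17a8 and Gad1 and in the middle of the order for Gad2, with Gad2 at 70.6, Slc17a8 at 27.7 and Gad1 at 7.75 CPM (1.87 in barcode set 1 and 10.98 in set 2).

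Whether GABA and glutamate genes share cells was read from the number of cells with both transcripts, set against the number expected if the shares of cells with each were independent. Of the 15 pairs the 6 genes form, 10 could be computed in the 10X cells. GAD transcripts and Slc17a8 met less often than that expectation, and Gad1 and Gad2 more often. Gad2 and Slc17a8 were found together in 370 cells against 635.2 expected, a ratio of 0.583 (0.529 to 0.639). Gad1 and Slc17a8 were found together in 180 cells against 313.1 expected, a ratio of 0.575 (0.497 to 0.661). Gad1 and Gad2 were found together in 454 cells against 305.4 expected, a ratio of 1.49 (1.37 to 1.61). The intervals hold the expected number fixed.

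Depth and UMI minimum set how exclusive the transcripts look. Without thinning the ratio for Gad2 with Slc17a8 was 0.748, and for Gad1 with Slc17a8 0.740. Counting a gene as present from 2, 3 or 5 UMIs lowered the ratio of Gad2 with Slc17a8 to 0.432, 0.363 and 0.356, and that of Gad1 with Slc17a8 to 0.440, 0.377 and 0.308. The ratio for Gad1 with Gad2 moved up over these minimums, to 1.59, 1.72 and 1.77. At 10 UMIs few cells were left, and the order did not go on, with 6 cells against 10.97 expected for Gad2 with Slc17a8 (0.547), 2 against 3.34 for Gad1 with Slc17a8 (0.599) and 1 against 1.12 for Gad1 with Gad2 (0.892). Both barcode sets held the same directions, with 0.526 and 0.608 for Gad2 with Slc17a8, 0.580 and 0.571 for Gad1 with Slc17a8, and 1.51 and 1.47 for Gad1 with Gad2.

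Ratios came closer to 1 when the clusters were taken into account. When the expected number was summed over the 14 clusters, the ratio became 0.940 (0.854 to 1.03) for Gad2 with Slc17a8, 0.970 (0.838 to 1.12) for Gad1 with Slc17a8 and 1.05 (0.966 to 1.14) for Gad1 with Gad2, and all 3 intervals include 1. Gad1 with Slc17a8 stood at 1.07 when the expected number was taken over clusters 2 to 6 together and at 1.03 over clusters 7 to 14. Clusters built without the 6 genes, an alternative added after the data were seen, gave 0.948, 0.989 and 1.05. These within-cluster ratios had limited room, since a gene found in nearly all cells of a cluster must be found with the other. The cell numbers allow 0.557 to 1.19 for Gad2 with Slc17a8 over the 14 clusters (0.761 to 1.07 in clusters 7 to 14), 0.420 to 1.68 for Gad1 with Slc17a8 and 0.676 to 1.35 for Gad1 with Gad2. Some single clusters lay lower. For Gad2 with Slc17a8, cluster 9 had 31 cells against 39.4 expected (0.786), cluster 1 had 8 against 11.1 (0.720) and cluster 8 had 2 against 2.68 (0.747). For Gad1 with Slc17a8, cluster 5 had 9 cells against 18.9 (0.477) and cluster 1 had 1 against 3.03 (0.330), while cluster 2 had 20 against 16.7 (1.20) and cluster 4 had 12 against 9.17 (1.31).

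The ratio of Gad1 with Gad2 was also taken within the GAD-rich and the Slc17a8-rich clusters. In clusters 2 to 6 together, 407 cells held both against 406.4 expected within clusters, a ratio of 1.00. In clusters 7 to 14 together, 41 cells held both against 22.3 expected, a ratio of 1.84 (1.33 to 2.48). Gad2 was in 947 of the 1154 cells of clusters 2 to 6 and in 213 of the 1048 of clusters 7 to 14, so that the ratio could reach at most 1.23 in the former and 3.32 in the latter, and the values 1.00 and 1.84 are not on a like scale. The excess lay mainly in cluster 13, with 19 against 11.3, cluster 9 with 7 against 2.96, cluster 11 with 9 against 5.44 and cluster 10 with 5 against 1.92. The same split for Gad2 with Slc17a8 gave 0.940 and 0.953. These groups of clusters were formed after their values were seen, and the difference between them was not tested.

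**Figure D2:**
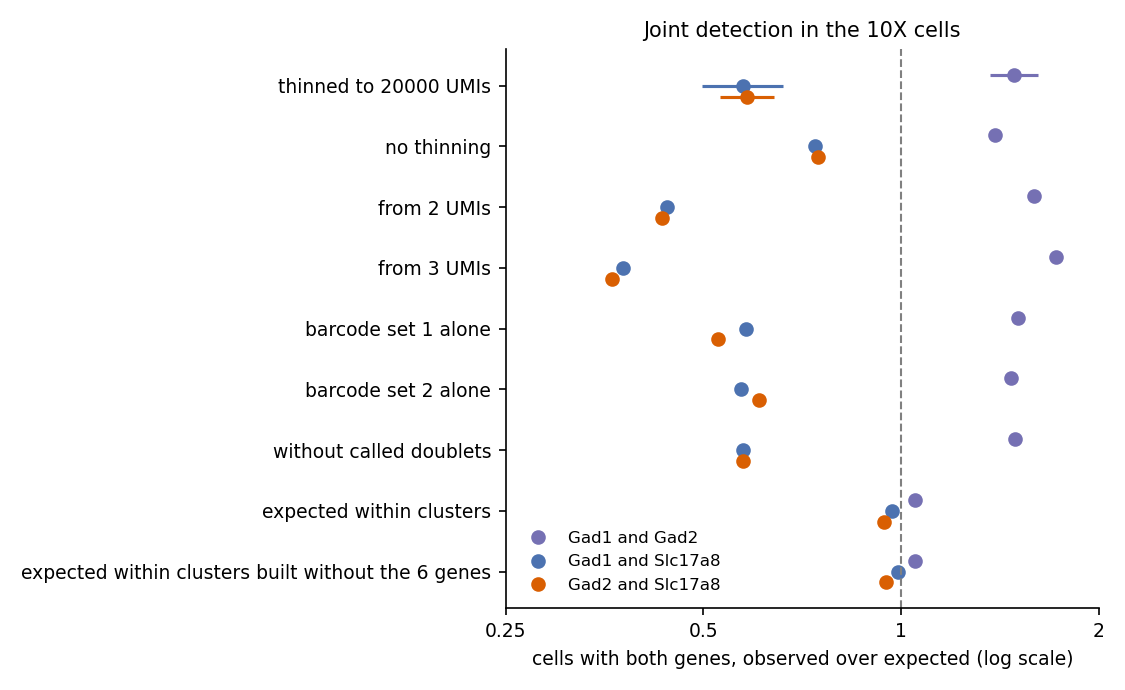
Cells with both transcripts of a pair over the number expected from independent detection, for 3 gene pairs and several settings, with 95% intervals where drawn. Pairs of a GAD gene with Slc17a8 lie below 1 in all settings and come close to 1 once the expected number is taken within clusters.

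GAD detection was graded by the amount of Slc17a8. Among 1074 thinned cells with 0 Slc17a8 UMIs, 76.6% had a Gad2 UMI. That share was 49.5% of 220 cells with 1 Slc17a8 UMI, 33.8% of 334 cells with 2 to 4, 23.3% of 395 with 5 to 9 and 20.4% of 274 with 10 or more. Gad1 followed the same order, from 38.0% through 28.2, 14.7 and 12.7 to 6.93%. Depth before thinning changed little over these bins, with medians from 61322 to 57407.5 UMIs.

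**Figure D3:**
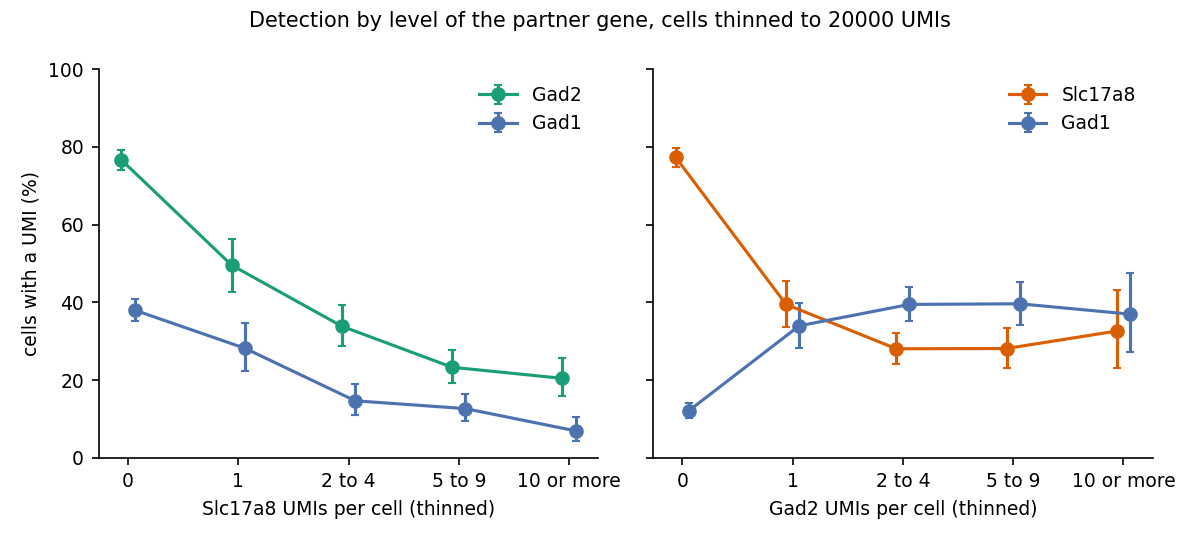
Share of thinned 10X cells with a UMI of the other gene, by the number of UMIs of the first gene in the cell, with 95% Clopper-Pearson intervals. Gad2 detection descends from 76.6% of cells without Slc17a8 to 20.4% of those with 10 or more of its UMIs.

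In the other direction the descent stopped early. Slc17a8 was detected in 77.3% of cells with 0 Gad2 UMIs, 39.5% with 1, 28.0% with 2 to 4, 28.1% with 5 to 9 and 32.6% with 10 or more. Cells rich in Gad2 thus still held a Slc17a8 UMI in about the share that cells with a few Gad2 UMIs did. Of the cells with Gad1, 77.2% had Gad2, whereas 38.1% of the more numerous cells with Gad2 had Gad1. In clusters 7 to 14, 41 of 80 cells with Gad1 had Gad2, and in cluster 13 19 of 42.

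The 2297 thinned cells were then divided by which transcripts they held. A GAD gene (Gad1 or Gad2) without Slc17a8 was found in 893 cells (38.9%), Slc17a8 without a GAD gene in 789 (34.3%), both in 434 (18.9%, 17.3 to 20.6) and neither in 181 (7.88%). All 3 transcripts were found in 116 cells (5.05%) against 162.6 expected from independent shares, while Gad1 with Gad2 and no Slc17a8 was found in 338 against 142.8. Cells with both made up 15.7% of barcode set 1 and 20.7% of set 2, and cells with neither 10.4% and 6.48%. Such classes are ranges of a count and not cell types. Of the 370 cells with Gad2 and Slc17a8, 196 (53.0%) rested on a single UMI of at least 1 of the genes. A doublet of a GAD cell and a Slc17a8 cell would fall among the cells with both, and 10 of the 14 doublets called by Scrublet were there. Without the called doublets the ratio for Gad2 with Slc17a8 was 0.574.

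A stricter count left a small group. At 5 UMIs of Slc17a8 and 5 of Gad1 or Gad2, 55 cells remained, 2.39% of the thinned cells (1.81 to 3.11), and 0 of them were called doublets. They came from both barcode sets (21 and 34 cells), and 46 lay in clusters 7 to 14, with 18 in cluster 13 and 15 in cluster 11. Their median Tph2 level was 2151 CPM, taken over a mixture of clusters, since the median cell of cluster 13 had 143 CPM.

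**Figure D4:**
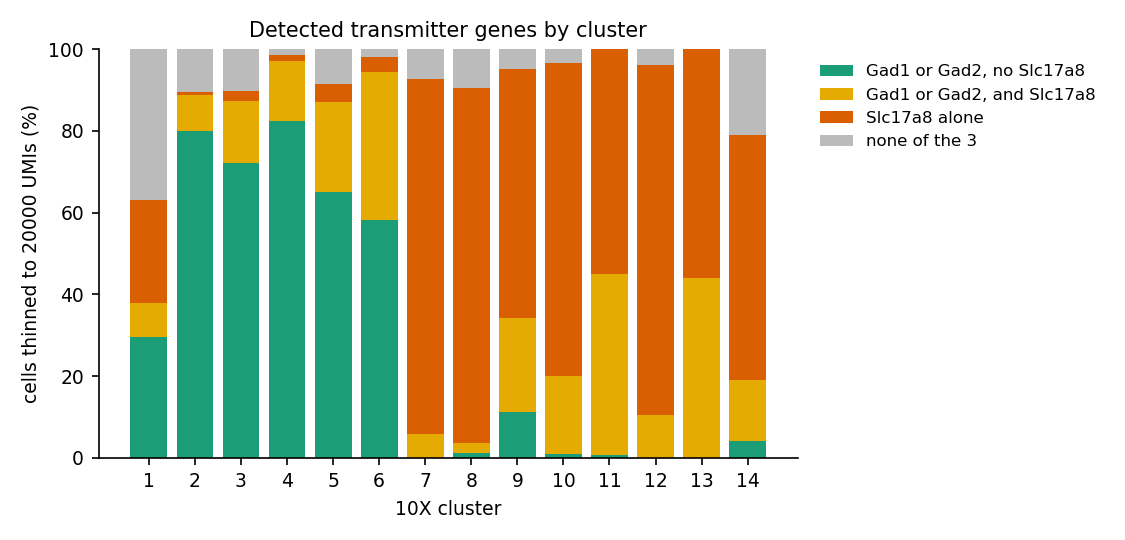
Share of thinned 10X cells in each cluster with a GAD gene only, Slc17a8 only, both or neither. Cells with both are most frequent in clusters 11, 13 and 6, and cells with neither in cluster 1.

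Cells with both were unevenly spread over the clusters. They made up 44.2% of cluster 11, 44.0% of cluster 13 and 36.2% of cluster 6, and 5.74, 2.38 and 10.4% of clusters 7, 8 and 12. Clusters 1 and 2 were as low, at 8.42 and 8.86%. Cluster 11 had 1 cell with a GAD gene alone, and 71 with Slc17a8 alone beside 57 with both. Cluster 6 was the mirror image, with 95 cells of a GAD gene alone, 6 of Slc17a8 alone and 59 with both. Cluster 1 stood apart in holding neither in 36.8% of its cells.

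Cluster 13 is poor in serotonin genes, with Tph2 at 644 CPM, and its cells were shallow (median 28627.5 UMIs). All its thinned cells held Slc17a8, and the unthinned cells divided into 69 with a GAD UMI and 75 without. Median Tph2 was 218 CPM in the former and 110 in the latter, and median Slc17a8 347 and 442 CPM. The median totals were 31515 and 26008 UMIs, so the cells with a GAD UMI were also the deeper ones. The part of depth in this split was not tested.

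The vesicular GABA carrier was concentrated in a handful of cells. Of 42 cells with an Slc32a1 UMI, 36 had 1, and 4 cells held 42 of the 82 UMIs (51.2%). A pair of them lay in cluster 4, with 13 and 7 Slc32a1 UMIs, Tph2 at 2129 and 5713 CPM, Gad2 at 1025 and 738 CPM and no Slc17a8 UMI. The other pair lay in cluster 13, with 11 Slc32a1 UMIs each, Tph2 at 23.2 and 259 CPM and Gad2 at 648 and 1489 CPM. Slc17a8 had 10 UMIs in the first of this pair and 0 in the second, a cell of 15445 UMIs that thinning set aside. By Gad2 level these 4 cells ranked 6, 20, 39 and 1 among all 2350 cells. None was called a doublet. Without them cluster 4 had 3 Slc32a1 UMIs in 143 cells and cluster 13 had 3 in 142. At equal depth Slc32a1 was detected in 5 of 92 cells with 10 or more Gad2 UMIs (5.43%, 1.79 to 12.2) and in 0.543% of cells without Gad2 (0.200 to 1.18). Those 5 can include cells described above, so the share is not a separate observation.

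The VGLUT2 gene Slc17a6 was rarer still. It had UMIs in 11 cells, and 4 of these held 14 of the 21 UMIs. The top cell, in cluster 6, had 6 Slc17a6 UMIs beside Tph2 at 2552 CPM and 18 Gad1 and 9 Gad2 UMIs. The next, in cluster 14, had 4 in a cell of 12812 UMIs in all, among the shallowest in the table.

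Other genes of transmitter handling were compared between the GAD only and Slc17a8 only cells, on summed UMIs. Of 12465 other genes with at least 100 UMIs, 808 (6.48%) differed at least 2-fold, 380 (3.05%) higher in GAD only and 428 (3.43%) higher in Slc17a8 only cells. A list of 23 genes held those of GABA and glutamate synthesis, uptake and breakdown together with other vesicular carriers (Slc17a5, Slc17a9 and the monoamine carrier Slc18a2), and 18 of them had enough UMIs. Among these, 1 was higher in GAD only, 2 were higher in Slc17a8 only and 15 stayed within 2-fold, Slc18a2 among them. Slc32a1 and Slc17a6 were below that minimum. The list's median log2 fold was -0.00033, and that of all genes compared was -0.01.

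The glutamate transporters Slc1a1 (EAAT3, the neuronal one) and Slc1a2 (GLT-1, best known from astrocytes) were the 2 genes higher in Slc17a8 only cells. Slc1a1 stood at 11.9 against 26.2 CPM (log2 -1.14), and Slc1a2 at 3.48 against 32.8 CPM (log2 -3.24). For Slc1a2 the log2 fold was -3.64 in barcode set 1 and -3.06 in set 2. Astrocyte markers summed to 0.442 CPM in GAD only and 0.574 CPM in Slc17a8 only cells, from 2 of 3 markers, and microglial markers (3 of 3) to 0.184 and 1.70 CPM. Their part in the Slc1a2 values was not tested. Among the genes within 2-fold were the GABA transaminase Abat, at 445 and 388 CPM (log2 0.20), glutamate dehydrogenase Glud1, at 125 and 116 (0.11), and the aspartate aminotransferase Got1, at 220.3 and 288 (-0.39).

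Serotonin genes differed in both directions between these classes. Fev was at 402 CPM in GAD only and 263 in Slc17a8 only cells (log2 0.61), and Slc18a2 at 2806 and 1890 (0.57). Slc6a4, the serotonin transporter, was at 2459 and 1959 (0.33) and Ddc, which makes serotonin from its precursor, differed by 0.18. Tph2 was slightly lower in GAD only cells, at 2758 against 2981 (-0.11). All 5 stayed within 2-fold. Each class pools unlike clusters. Of the 789 Slc17a8 only cells, 91, 75 and 57 lay in clusters 12, 13 and 14, where Tph2 was at 1702, 644 and 1445 CPM. Tph2 ran from 3107 to 3759 CPM over clusters 7 to 11 and from 2361 to 3313 CPM over clusters 2 to 6. The part of this mixture in the folds was not tested.

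Genes that follow each member over the 2350 cells were ranked by Pearson's r of log-normalised levels, over 11480 genes with a UMI in at least 10% of cells. Cells share libraries, depth and clusters, so r is a description and carries no p. Which genes came first depended on the setting. Of the 5 highest for each member, Gad1 kept 4 at equal depth, 4 by Spearman's rho, 3 in barcode set 1 and 4 in set 2. Gad2 kept 2, 3, 3 and 5, and Slc17a8 kept 4, 4, 3 and 4. Gad1 went most closely with Asb4 (0.468), Amigo2 (0.416), Pax5 (0.388), Gucy1a3 (0.383) and Cdh13 (0.372), and least with Nefl (-0.321), Cbln2 (-0.295) and Ntm (-0.283). Gad2 went with Prmt8 (0.470), Cdh13 (0.464), Pcsk6 (0.461), Peli2 (0.446) and Aldoc (0.437). The lowest r of Gad2 with any gene ranked was that with Slc17a8 itself (-0.445), followed by Lypd1 (-0.427) and Slit2 (-0.414).

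Slc17a8 had the closest followers of the 3 genes. They were Mgat4c (0.572), Slit2 (0.553), Nxph1 (0.533), Gabrg3 (0.533), which encodes a GABA receptor subunit, and Rab3c (0.531). Its lowest r values were with Cdh13 (-0.679), Prmt8 (-0.611) and Tmem114 (-0.596), so that Cdh13 was among the closest followers of both GAD genes and the farthest from Slc17a8. Of the 24 pairs named, 23 could be measured in the 70 manual cells, which the ranking did not use, and all 23 had the same sign there (absolute r 0.202 to 0.769). Between the members, Gad2 with Slc17a8 had r = -0.445 in 10X and -0.766 in manual cells, Gad1 with Slc17a8 -0.271 and -0.310, and Gad1 with Gad2 0.272 and 0.351.

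In the manually sorted cells, read far more deeply per cell, GAD genes and Slc17a8 differed between the sorted groups, with ranges that overlapped. The groups differ in Cre driver, region and in part age, so region alone is not set apart. At 1 CPM or more, Slc17a8 was present in 45 of 70 cells, Gad2 in 33 and Gad1 in 15. Per kilobase of exon the mean levels were 21.4 CPM for Slc17a8, 12.9 for Gad2 and 8.78 for Gad1, against 0.0986 for Slc32a1, 0.0312 for Slc17a7 and 0.00181 for Slc17a6. In the cells that had at least 10 CPM of the gene, the order was another one, with means per kilobase of 43.8 CPM for Gad1, 37.3 for Slc17a8 and 29.2 for Gad2. Gad1 was thus in few cells at a high level.

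**Figure D5:**
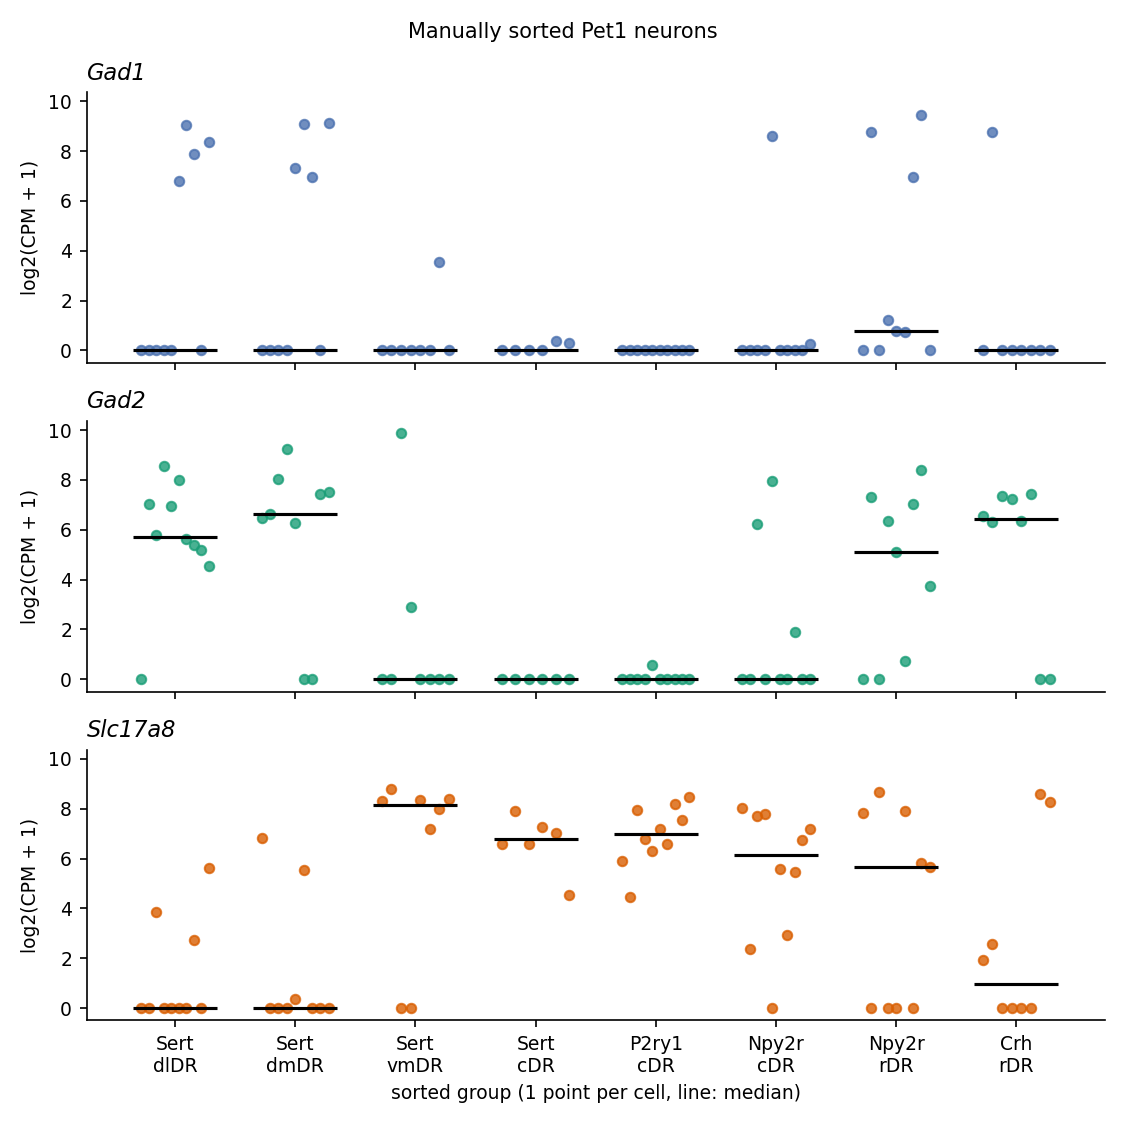
CPM of Gad1, Gad2 and Slc17a8 in each of the 70 manually sorted cells, by group (1 point per cell). All P2ry1 cDR and Sert cDR cells have Slc17a8 and none reaches 1 CPM of a GAD gene, while dlDR and dmDR cells mostly hold Gad2.

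Gad2 was broadest in the dorsal groups. In dlDR it ranged from 0 through a median of 51.4 to 376 CPM and reached 1 CPM in 9 of 10 cells, and in dmDR from 0 through 98.0 to 604 CPM in 7 of 9 cells. In the rDR it ran from 0 through 86.1 to 171 CPM in Crh cells (6 of 8) and from 0 through 33.5 to 336 CPM in Npy2r cells (6 of 9). In the caudal and ventral groups fewer cells had it. In Npy2r cDR 3 of 10 cells had it, with a median of 0 and a maximum of 250.1 CPM. In vmDR 2 of 8 cells had it, at 940.2 and 6.51 CPM, the former the highest of all 70 cells, and this cell brought the vmDR mean to 118 CPM against 108 in dlDR. No cell of P2ry1 cDR or Sert cDR reached 1 CPM. The highest was 0.468 CPM in the 10 P2ry1 cells, and all 6 Sert cDR cells were at 0, which with 3 reads over the group's total allows 0.136 CPM.

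Gad1 was patchier, with a median below 1 CPM in every group. It was present in 4 of 10 dlDR cells (maximum 529 CPM), 4 of 9 dmDR cells (562) and 4 of 9 Npy2r rDR cells (695). A single cell had it in Crh rDR (439 CPM), in Npy2r cDR (394) and in vmDR (10.7). All 10 P2ry1 cells were at 0, and the highest Sert cDR cell was at 0.299 CPM. Of the 15 cells with Gad1, 14 had at least 10 CPM. In 3 of the 15 Gad2 was below 1 CPM, 2 of them in dmDR.

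Slc17a8 was present in most cells of the caudal and ventral groups. All 10 P2ry1 cDR cells had it, from 21.0 through a median of 128 to 353 CPM, and all 6 Sert cDR cells, from 22.2 through 112 to 239 CPM. In Npy2r cDR 9 of 10 cells had it, with a median of 75.7 and a maximum of 262 CPM. The vmDR held the highest median, 287 CPM, with 6 of 8 cells and a maximum of 447. The rostral groups were mixed, with 5 of 9 Npy2r cells (median 49.3, maximum 401) and 4 of 8 Crh cells (median 1.39, maximum 384). In dmDR 2 of 9 cells (maximum 111) and in dlDR 3 of 10 (maximum 48.0) had it, with medians of 0. For each gene, the ranges of groups next to each other in the order of medians overlapped.

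The remaining carriers were again rare. Slc32a1 had reads in 3 of 70 cells, at 13.4 CPM in a vmDR cell, 5.09 in a Sert cDR cell and 0.802 in a Npy2r rDR cell. The vmDR cell was the one with Gad2 at 940.2 CPM. Slc17a7 had reads in 3 cells, at 9.01 and 2.48 CPM in P2ry1 cells and 0.299 CPM in a Sert cDR cell, and Slc17a6 in 1 Sert cDR cell at 0.685 CPM.

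At 1 CPM, 24 of the 70 cells had a GAD gene alone, 33 Slc17a8 alone, 12 both and 1 neither, a dlDR cell. Gad2 and Slc17a8 were found together in 10 cells against 21.2 expected, a ratio of 0.471 (0.233 to 0.815), and 0.676 when the expected number was summed within groups, which was added after the data were seen. Gad1 and Slc17a8 shared 6 cells against 9.64 (0.622, 0.233 to 1.29) and Gad1 and Gad2 12 against 7.07 (1.70, 0.909 to 2.77), so that the intervals of both of these pairs include 1. Within groups their ratios were 0.929 and 1.12. Of the 12 cells with both, 8 remained at a minimum of 10 CPM. They included Npy2r rDR cell 8, with Gad1 at 695, Gad2 at 336 and Slc17a8 at 56.0 CPM, dmDR cell 1, with Gad2 at 88.0 and Slc17a8 at 111 CPM, and Npy2r cDR cell 3, with 74.0 and 207 CPM. Tph2 in these 3 cells was at 16342.6, 11488.2 and 10676.8 CPM.

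Pairs of groups that share a driver or a region were compared by the log2 ratio of mean CPM plus 1, and the numbers of members past 2-fold were read against all genes. From dmDR to vmDR 3 of 4 members compared were past 2-fold, where 25.6% of 12613 genes were. Gad1 was higher in dmDR (log2 6.05) and Slc17a8 lower (-3.64), both in the same direction when any single cell was left out (5.48 to 7.28, the latter without vmDR cell 7, and -5.10, without dmDR cell 1, to -3.43). The third was Slc32a1 (log2 -1.42), at 0 in dmDR and a mean of 1.68 CPM in vmDR, all from vmDR cell 3. It passed the filter of 1 CPM through vmDR alone, so with 1 CPM added its place past 2-fold was fixed in advance. Its pooled level in vmDR was 17.8 times the floor of 3 reads in dmDR, which covers the counting of reads only. The median of Gad1 was 0 in both groups, so that its log2 ratio by medians was 0. Gad2 differed by 0.47, which became 6.42 without the vmDR cell at 940.2 CPM and -0.11 without dmDR cell 4. Between dlDR and dmDR 1 of 3 was past 2-fold (background 23.1%), Slc17a8 at -1.26, and it turned to 0.20 without dmDR cell 1 and stood at -2.56 without dlDR cell 10.

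From vmDR to Sert cDR 2 of 4 members were past 2-fold (background 32.5%). Gad2 was at 0 in the cDR cells, so its call was fixed once it passed the filter through vmDR. Its log2 ratio of 6.90 fell to 0.95 without vmDR cell 3, which held 2945 Gad2 reads, against 15 in cell 4. Its pooled level in vmDR was 751 times the floor of 3 reads in the cDR cells, which covers the counting of reads only. Gad1 also passed the filter through vmDR alone (1.34 against 0.0879 CPM). Its log2 ratio of 1.11 turned to -0.12 without vmDR cell 7. Between P2ry1 and Sert cells of the cDR 1 of 2 members was past 2-fold (background 40.9%), the near-absent Slc17a7. It passed the filter through P2ry1 cells alone (1.15 against 0.0499 CPM) and fell within 2-fold without P2ry1 cell 8. Between Npy2r cells of the rDR and cDR 2 of 3 were past 2-fold (background 27.2%), with Gad1 at 1.80, Gad2 at 1.33 and Slc17a8 at 0.05. Without Npy2r rDR cell 8 the GAD genes were at 0.82 and 0.66, and without Npy2r cDR cell 5 at 7.11 and 3.15. Between Crh and Npy2r cells of the rDR 1 of 3 was past 2-fold (background 25.7%), with Gad1 at -1.33, Gad2 at 0.13 and Slc17a8 at -0.30, and Gad1 stood at -0.36 without Npy2r rDR cell 8 and at -7.14 without Crh cell 2. In none of the 6 comparisons were the ranges of a member apart.

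Depth and age moved with some of these values. Npy2r rDR cells 4 to 7 and Crh cells 1 to 4, with 756872 to 1552472 reads, were the shallowest of their groups, and the other cells of these groups had 4795247 to 7664103. In Npy2r cDR the median of Slc17a8 was 214 CPM in 4 cells of day 77 and 44.8 CPM in 6 cells of day 87. In dlDR Gad1 was present in 1 of 5 cells at day 63 and 3 of 5 at day 90. The part of depth or age in these differences was not tested.

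Of the listed pathway genes, 18 to 21 were compared in each pair of groups. At most 3 were higher by 2-fold and 5 lower, both of 21 in P2ry1 against Sert cDR cells, where 40.9% of all genes were past 2-fold. From vmDR to Sert cDR 3 of 20 were higher and 4 lower, beside 32.5% of all genes. In P2ry1 against Sert cDR cells the mitochondrial glutamate carrier Slc25a22 was at 67.2 CPM in P2ry1 and 192 CPM in Sert cells, with ranges that did not overlap. The share of all genes with ranges apart was not computed, so this gene is not set against a background. Glul, the glutamine synthetase, was at 17.7 against 45.9 CPM. Markers of other cell types were also higher in these Sert cDR cells. Astrocyte markers (3 of 3 in the table) summed to a median of 27.2 and a maximum of 199.5 CPM, against 0 in all P2ry1 cells. Oligodendrocyte markers (4 of 4) summed to a median of 43.4 and a maximum of 268 CPM, against 0 and 85.8 in P2ry1 cells. Markers of other neurons (7 of 7) summed to a median of 2.03 and a maximum of 42.5 CPM, against 0 in all P2ry1 cells. The part of RNA of other cells in these values was not tested.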

How the data were processed

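Counts were used as the authors deposited them: UMI counts per gene for the pooled 10X cells (Cell Ranger 3.0.2 and mm10 per the submitters' processing notes) and read counts per gene for 70 manually sorted SMART-Seq v4 cells (STAR 2.5.4). Before deposit, the authors had dropped rarely detected genes from the 10X table, along with libraries that were gene-poor, glial, mitochondrial, low in Fev or outlying in total. All columns mapped to samples, and 0 columns belonged to no sample.

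The members, lists and comparisons were chosen with earlier results of these data known. CPM were computed from summed UMIs or each cell's reads. Shares of 10X cells were compared after thinning each cell to 20000 UMIs. Clusters were rebuilt in Seurat 5.3.0 (R 4.3.3) with 2000 variable genes, components 1 to 50 without 6 and 7, and resolution 0.9. Doublets were called per barcode set with Scrublet in scanpy 1.11.5 and kept. Genes named were the 6 members, the 5 genes with the highest and 3 with the lowest r per member detected in 10% of cells, a list of 23 pathway genes and 5 serotonergic genes. Intervals are exact Clopper-Pearson or Poisson at 95%, and cover counting error only. Folds used CPM plus 1 over genes with a mean of 1 CPM in either group. Scripts (Python 3.11.15, numpy 2.4.6, scipy 1.17.1) were tested on simulated data. Alternatives varied the thinning depth, UMI minimum, clustering, filter, pseudocount, scaling (edgeR 4.0.16) and the cells included. No test was made, since cells of 1 group are not replicates. Some genes of the lists are counted and not reported here by name.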

Additional observations from a re-analysis of the deposited data

Results flagged for a closer look

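In 28 sets of cells (1 gene in 1 sorted group of 6 to 10 cells, not all at the same value), the highest or lowest cell was compared with its nearest neighbour relative to the group's whole range, on the scale of log2(CPM + 1) (Dixon's criterion at 95%). In 11 of them a single cell stood far from the rest. Chance alone singles out about 1 set in 20, and a group with most cells at 0 and 1 above 0 always meets the criterion.

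Gad1 stood apart at 10.7 CPM in vmDR cell 7, at 394 CPM in Npy2r cDR cell 5 and at 439 CPM in Crh rDR cell 2. Gad2 stood apart at 940.2 CPM in vmDR cell 3, where the nearest cell was at 6.51 CPM, and at 0.468 CPM in P2ry1 cDR cell 5. It was also low, at 0, in dlDR cell 1, whose nearest neighbour was at 22.2 CPM, and which held no read of any of the 6 genes.

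The rarer carriers were singled out by 1 cell each. Slc32a1 was at 13.4 CPM in vmDR cell 3, at 5.09 CPM in Sert cDR cell 5 and at 0.802 CPM in Npy2r rDR cell 7. Slc17a6 was at 0.685 CPM in Sert cDR cell 6, and Slc17a7 at 0.299 CPM in Sert cDR cell 5.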

How the results depend on the processing

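The ratios of GAD genes with Slc17a8 in the 10X cells were below 1 in every alternative listed here, but within clusters their intervals include 1. For Gad2 with Slc17a8 (0.583) the ratio was 0.748 without thinning, 0.680 at 40000 UMIs, 0.432 and 0.363 from 2 and 3 UMIs, 0.526 in barcode set 1, 0.940 within clusters and 0.948 within clusters built without the 6 genes. For Gad1 with Slc17a8 (0.575) it was 0.740 without thinning, 0.440 and 0.377 from 2 and 3 UMIs, 0.970 within clusters and 0.989 within clusters built without the 6 genes. For Gad1 with Gad2 (1.49) it was 1.72 from 3 UMIs and 1.05 within either set of clusters. Slc17a8 exceeded Gad2 in 8 clusters under 3 of 4 other clusterings and in 6 of 11 at resolution 0.7.

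The numbers of members past 2-fold between sorted groups rest on single cells. With medians in place of means they were 0 for dlDR against dmDR (1 with means), 2 for dmDR against vmDR (3), 1 for vmDR against Sert cDR (2), 0 for P2ry1 against Sert cDR (1), 1 for Npy2r rDR against cDR (2) and 2 for Crh against Npy2r rDR (1). With the filter at 5 CPM they were 1 for vmDR against Sert cDR and 0 for P2ry1 against Sert cDR. For dmDR against vmDR that filter removed Slc32a1, at 0 and 1.68 CPM. Leaving out 1 cell at a time gave 0 to 2 for dlDR against dmDR, for P2ry1 against Sert cDR and for Crh against Npy2r rDR, a low of 1 for vmDR against Sert cDR and a low of 0 for Npy2r rDR against cDR. Over the same cells, the log2 fold of Slc17a8 between dlDR and dmDR was -1.26 and ranged from -2.56 to 0.20, the latter without dmDR cell 1, and that of Gad1 between vmDR and Sert cDR was 1.11 and ranged from -0.12 (without vmDR cell 7) to 1.22. A further 542 alternative values covered shares, levels, folds, r and the ratios of the other gene pairs. Of these, 443 stayed on their side of 2-fold or within the interval or spread set for their kind. Another 97 moved, and the 2 folds just named, past 2-fold at first, changed sign. Folds within 2-fold changed sign too, such as Slc17a8 between Npy2r rDR and cDR (0.05 with means and -0.61 with medians). Gad1 in its highest cluster was at 128 CPM at resolution 0.7 (198). Of 91 for the comparisons, 61 stayed and 30 moved.

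No paired analysis was possible because no test was made, and the replicate numbers only name cells. At 20000 UMIs a member below about 1 UMI per cell is missed in many cells that hold it, so a missing UMI does not show that a cell lacks the transcript.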
